A study of Mus musculus with 3 samples.

Results

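Imprinted genes are read mainly from the copy inherited from 1 parent, and 10 of them were followed through the cells of MYCN-driven mouse neuroblastoma: the paternally expressed Peg10, Dlk1, Ndn, Nnat, Kcnq1ot1 and Igf2 and the maternally expressed Meg3, Rian, Mirg and H19. The genes were chosen by their levels in the tumor cells of these same data, so their levels across cell classes and the balance of paternal and maternal genes are described here without a test. Of the 10 genes, 9 were found by symbol among the 31053 gene symbols of the raw tables, and Rian is not analysed here. A further 60 imprinted genes, of which 58 were found, served as a comparison.

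The samples were 3 whole neuroblastomas, 1 from each of 3 TH-MYCN mice, all heterozygous for a transgene in which the tyrosine hydroxylase promoter drives human MYCN in cells of the sympathetic lineage; the mice were 62, 79 and 63 days old for tumors 1, 2 and 3. The tumors were dissociated, profiled by droplet single-cell RNA-seq of transcript 3′ ends, and form a single group with no normal tissue beside them. All values below come from the 5650 barcodes the authors kept (1914, 1221 and 2515 in tumors 1, 2 and 3) and count unique molecular identifiers (UMIs), each standing for 1 captured transcript. Levels are UMIs per 1000000 UMIs of the same cells (CPM), with no division by transcript length, so a gene is compared across cells and not with other genes.

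An imprint is a DNA methylation mark set in the egg or the sperm that survives fertilisation and keeps 1 parental copy silent in the body. Imprinted genes lie in clusters in which protein-coding genes of growth and metabolism are paired with long noncoding RNAs from the opposite parental copy, such as Dlk1 with Meg3 and Igf2 with H19. Many are active in the embryo, the placenta and the neuroendocrine lineage, and Dlk1 is a surface protein also found in the adrenal medulla.

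In mouse build GRCm38, Dlk1 (ENSMUSG00000040856), Meg3 (ENSMUSG00000021268), Rian and Mirg lie in this order on the plus strand of chromosome 12, at 109452823-109463336, 109541001-109571726, 109603940-109661716 and 109729764-109749460. On chromosome 7, H19 (142575529-142578143), Igf2 (142650766-142666816) and Kcnq1ot1 (143203458-143296549) are on the minus strand and Ndn (62346569-62350262) is on the plus strand. Peg10 lies at 4747306-4760517 of chromosome 6 and Nnat at 157560078-157562522 of chromosome 2, both on the plus strand. Dlk1, Peg10, Ndn, Nnat and Igf2 are annotated as protein-coding, Meg3, Mirg and H19 as long intergenic noncoding RNAs and Kcnq1ot1 as an antisense RNA within Kcnq1.

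The promoters of Dlk1 and Meg3 are shown because the 2 neighbouring genes are read from opposite parental copies and differed in level between groups of tumor-like cells. Each line gives the 250 bases before a start site on the plus strand (RefSeq, GRCm38.p6), at chr12:109452573-109452822 for Dlk1 and chr12:109540746-109540995 for the first of 2 Meg3 starts, with a cyclic AMP response element (TGACGTCA, searched on both strands) in capitals.
Dlk1: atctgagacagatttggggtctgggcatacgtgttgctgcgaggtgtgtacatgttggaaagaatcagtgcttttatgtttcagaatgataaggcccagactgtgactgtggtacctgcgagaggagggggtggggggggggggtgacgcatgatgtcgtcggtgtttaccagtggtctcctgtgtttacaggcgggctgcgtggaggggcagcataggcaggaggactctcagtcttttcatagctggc
Meg3: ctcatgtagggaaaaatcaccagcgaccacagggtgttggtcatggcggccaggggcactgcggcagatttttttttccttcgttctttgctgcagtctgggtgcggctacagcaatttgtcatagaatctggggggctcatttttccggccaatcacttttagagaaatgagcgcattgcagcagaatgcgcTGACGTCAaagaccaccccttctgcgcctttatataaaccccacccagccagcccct
The element lay 57 bases before the Meg3 start and was in none of the other 11 promoters of the 8 members with a promoter in the table; it was present in 508 of 32851 promoters (1.55%). The E-box CACGTG, the motif bound by MYC-family proteins, was in none of these 12 windows and in 1978 of 32851 promoters (6.02%). These are letter matches within 250 bases and say nothing of what is bound there.

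Mirg, H19, Meg3, Rian and Igf2 hold microRNAs within their spans, which were not measured by this assay. RefSeq places 26 mature microRNAs within Mirg, on 25 different seeds, 6 within Rian, 3 within Meg3, 2 within Igf2 and 2 within H19. The 2 Mirg products that share a seed (bases 2 to 8, in capitals) and 1 of the H19 products are given as examples.
mmu-miR-453 (Mirg): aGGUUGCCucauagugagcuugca
mmu-miR-496a-5p (Mirg): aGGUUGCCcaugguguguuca
mmu-miR-675-5p (H19): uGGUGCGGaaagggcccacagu

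Cells were grouped into 20 clusters without the imprinted genes and named from marker genes, and 5 clusters holding 3225 cells were named tumor-like. They made up 18.2%, 74.7% and 78.1% of the kept cells of tumors 1, 2 and 3, or 349, 912 and 1964 cells. The neuronal genes Stmn2 and Tubb3 had a UMI in 49.0% to 76.5% and 54.7% to 72.7% of them, and the sympathetic transcription factor Hand2 in 30.2% to 42.1%, whereas the noradrenaline enzyme Dbh had one in at most 5.15%. The median depth of these cells was low, at 934, 1548 and 1799 UMIs. In tumor 1, 50 of the 349 tumor-like cells stood apart: the pan-leukocyte gene Ptprc had a UMI in 32.0% of them against 6.69% of the other 299, and Stmn2 in 22.0% against 53.5%, so results were also computed without them. Between 1 and 4 kept barcodes of each tumor also occurred in another tumor.

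Levels outside the tumor-like class differed between the libraries for Stmn2, Tubb3 and Hand2. In the immune classes Peg10, Dlk1, Meg3, Ndn and Nnat moved with them. Kcnq1ot1 did not split in this way, at 8.50% to 56.0%, 8.14% to 68.6% and 10.4% to 120% of its tumor-like level in tumors 1, 2 and 3. In the 6 immune classes of tumor 1 with at least 10 cells, plasma cell-like cells not counted, Peg10 stood at 1.02% to 2.80% of its tumor-like level and Stmn2 at 0.657% to 2.01%. In tumors 2 and 3 the same shares were 32.7% to 108% and 27.7% to 66.7% for Peg10, and 23.9% to 72.6% and 40.8% to 88.6% for Stmn2. Tubb3 and Hand2 showed the same split, with 0% to 3.88% in tumor 1 and 19.3% to 94.9% in tumors 2 and 3. In the CAF-like cells Stmn2 stood at 1.74%, 11.03% and 30.8% of its tumor-like level and Tubb3 at 1.17%, 18.6% and 40.8%. A level in another class of tumor 2 or 3 is therefore given as measured and not read as expression by those cells, and the cause was not tested. Intervals below cover counting error only.

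Peg10, which encodes a retrotransposon-derived protein needed for the placenta, was at 2883, 1032 and 1402 CPM in the tumor-like cells of tumors 1, 2 and 3 (1772 ± 980, SD, n = 3). Tumor 1 was 2.79 times as high as tumor 2, with 95% Poisson intervals of 2752 to 3020 and 985 to 1081 CPM. In the macrophage-like cells Peg10 was at 45.2, 337 and 388 CPM and in the CAF-like (cancer-associated fibroblast) cells at 51.0, 208 and 376 CPM. The tumor-like level was thus the highest in tumors 1 and 3, and in tumor 2 the 15 B cell-like cells were at 1119 CPM from 28 UMIs. Thinned to 500 UMIs per cell, 65.9%, 37.4% and 47.0% of tumor-like cells held a Peg10 UMI against 4.08%, 18.9% and 25.5% of macrophage-like cells, and unthinned the shares were 81.1%, 80.6% and 88.6% against 25.9%, 71.2% and 72.9%. Median depths were 934, 1548 and 1799 UMIs in tumor-like and 7672, 2298 and 2884 UMIs in macrophage-like cells.

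Dlk1, a transmembrane relative of the Notch ligands that holds precursor cells in an immature state, was at 604, 883 and 726 CPM in tumor-like cells (738 ± 140, SD, n = 3). It was the highest of all classes in each tumor. In tumor 1, where tumor genes were low in the immune classes, the other 10 classes lay between 4.27 and 16.2 CPM. The CAF-like cells held 14.1, 26.0 and 264 CPM and the macrophage-like cells 7.38, 171 and 235 CPM. In tumor 1 the tenth of tumor-like cells with the most Dlk1 UMIs held 80.4% of the Dlk1 UMIs. In tumors 2 and 3 that share was 43.3% and 33.1%. The uneven spread in tumor 1 was not particular to Dlk1. For Peg10, Ndn and Nnat the same share was also highest in tumor 1, at 49.1%, 69.1% and 73.2%. These shares count raw UMIs without adjustment for depth, and the part of depth in them was not tested.

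Meg3, the maternally expressed noncoding RNA downstream of Dlk1, was at 1615, 1905 and 1613 CPM in tumor-like cells (1711 ± 168, SD, n = 3). In tumor 1 this level rested on few cells: 74 of 349 cells held a Meg3 UMI, 2 cells held 259 and 258 of the 1011 UMIs, and the tenth of cells with the most held 95.9%, against 70.9% and 66.3% in tumors 2 and 3. With the authors' corrected counts the levels were 776, 2245 and 1987 CPM. Their closeness between tumors thus holds on the raw counts and not on the corrected ones. In tumor 1 the corrected totals of kept cells spanned 2042 to 3961 UMIs between the 5th and 95th percentile, against 599 to 19613 raw. Deep cells thus weigh less in the corrected counts, and the part of this in the change was not tested. Dlk1 and Meg3 differed in the next class, since CAF-like cells held 1475, 2186 and 1418 CPM of Meg3 (1693 ± 428, SD, n = 3), and its means in the 2 classes differed by less than either SD. In the CAF-like cells of tumor 1 the 1360 Meg3 UMIs came from 39 of 45 cells. The 16 mesothelial-like cells of tumor 1 held 726 CPM in 13 cells, while the 6 immune classes of that tumor were at 8.68 to 40.0 CPM and the 24 plasma cell-like cells at 284 CPM.

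Mirg, the microRNA host gene at the far end of the same locus, was at 36.7, 61.6 and 69.2 CPM in tumor-like cells (55.9 ± 17.0, SD, n = 3). In the CAF-like cells Mirg was at 41.2, 52.1 and 24.0 CPM from 38, 4 and 3 UMIs. The value of tumor 3 was 34.7% of its tumor-like level, beside 30.8% for Stmn2 in the same cells. Beside the 726 CPM of Meg3 in the mesothelial-like cells of tumor 1, Mirg was at 3.75 CPM from 2 UMIs. In the macrophage-like cells it was at 0.802, 9.63 and 19.1 CPM. The low count of 23 UMIs in the tumor-like cells of tumor 1 left a 95% Poisson interval of 23.3 to 55.1 CPM.

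Ndn, a member of the MAGE family expressed in postmitotic neurons and part of the Prader-Willi gene cluster, was at 356, 383 and 535 CPM in tumor-like cells (425 ± 96.7, SD, n = 3). Nnat, a small membrane proteolipid of the developing nervous system, was at 327, 532 and 521 CPM (460 ± 115, SD, n = 3). In tumor 1 the class nearest to them was CAF-like for Ndn, at 71.6 CPM, and neutrophil-like for Nnat, at 24.0 CPM. Both tumor-like levels were the highest of all classes in each tumor.

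Kcnq1ot1, an unspliced noncoding RNA that silences neighbouring genes on the paternal copy, was at 316, 184 and 216 CPM in tumor-like cells (239 ± 68.8, SD, n = 3). In tumor 1, 25 of 349 tumor-like cells held a UMI of it and 1 cell held 86 of the 198 UMIs. Kcnq1ot1 was spread over classes to a degree seen for no other paternally expressed member in tumor 1. There the mesothelial-like cells held 263, the plasma cell-like 194, the B cell-like 177, the endothelial-like 169, the T cell-like 142 and the CAF-like 140 CPM. The neutrophil-like cells were low in all 3 tumors, at 26.9, 15.0 and 22.4 CPM from 19, 2 and 1 UMIs. The T cell-like level was 142, 126 and 146 CPM from 113, 11 and 16 UMIs. Its 95% Poisson intervals in tumors 2 and 3 were wide, at 63.1 to 226 and 83.2 to 236 CPM. Peg10, Dlk1, Ndn and Nnat were at 5.01 to 45.1 CPM in the T cell-like cells of tumor 1 and at 161 to 864 CPM in those of tumors 2 and 3. In other classes Kcnq1ot1 differed more between tumors, at 177, 39.9 and 260 CPM in B cell-like and 169, 48.5 and 162 CPM in endothelial-like cells.

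H19, a maternally expressed noncoding RNA of embryonic tissues, was near the detection limit in tumor-like cells, at 22.4, 19.97 and 11.3 CPM from 14, 35 and 42 UMIs (17.9 ± 5.81, SD, n = 3). Higher levels were carried by few stromal cells. In the mesothelial-like class of tumor 1 the level of 786 CPM rested on 419 UMIs in 2 of 16 cells, with 251 and 168 UMIs. Of the 52 H19 UMIs in the CAF-like cells of tumor 1, 33 came from 1 cell, and of the 18 in tumor 3, 17 came from 1 cell.

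Igf2, the growth factor gene next to H19, was listed at 0 UMIs in all 3225 tumor-like cells. This value cannot be read as a level. In the gene annotation 3284 of the 3287 bases of the last Igf2 exon (99.9%) also belong to Gm49394, a protein-coding gene on the same strand that is listed in the tables, and 3′ reads that fall there fit both genes. The only Igf2 UMIs in any named class were 4, in a single mesothelial-like cell of tumor 1.

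**Figure D1:**
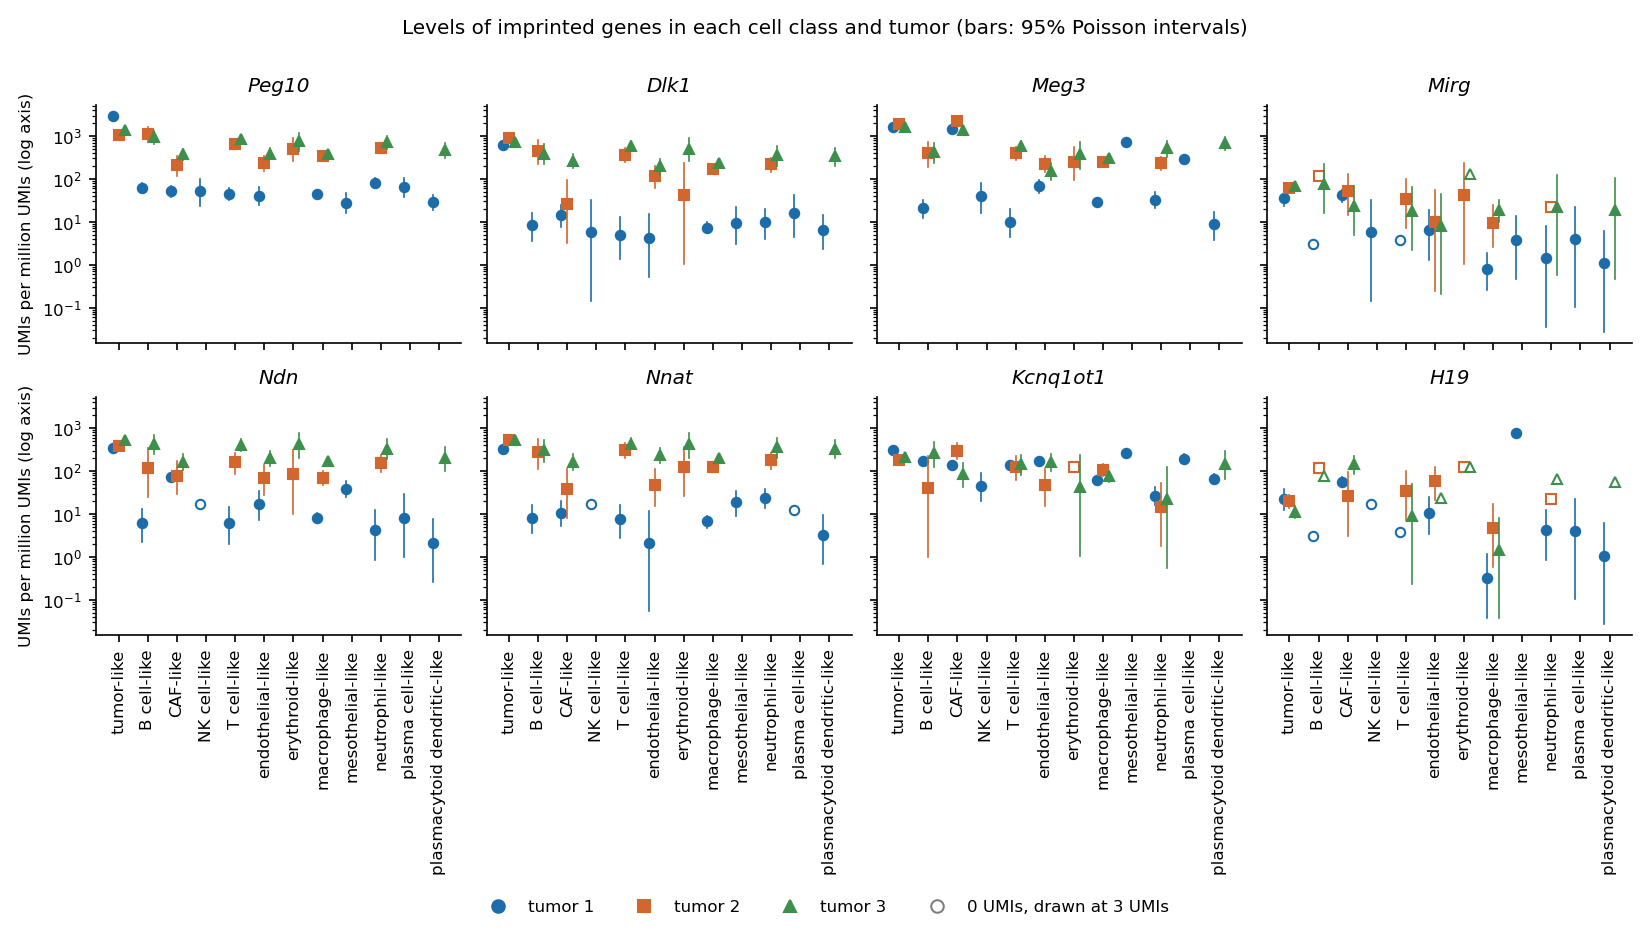
Levels of 8 imprinted genes in each named cell class of at least 10 cells, in CPM on a log axis, with 1 symbol per tumor and 95% Poisson intervals; hollow symbols mark classes with 0 UMIs. Peg10, Dlk1, Ndn and Nnat of tumor 1 (blue) fall steeply outside the tumor-like class, Meg3 stays high in the CAF-like class at 1418 to 2186 CPM, and Kcnq1ot1 is spread over many classes.

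Within the tumor-like cells, Dlk1 made up 26.8%, 31.0% and 30.1% of the UMIs of Dlk1, Meg3 and Mirg together in tumors 1, 2 and 3, with exact 95% binomial intervals of 24.5% to 29.2%, 29.7% to 32.3% and 29.2% to 31.1%. The maternally expressed genes thus gave the larger share in every tumor. In the CAF-like cells Dlk1 made up 0.921%, 1.15% and 15.5% of the same sum, in the same order of tumors as Stmn2 in those cells, and in the mesothelial-like cells of tumor 1 1.27%. The macrophage-like cells stood at 19.7%, 40.1% and 42.3%, from sums of only 233, 177 and 378 UMIs. Since 3′ UMIs carry no allele, these are shares of genes and not of parental copies. For Igf2 and H19 together the tumor-like cells held 14, 35 and 42 UMIs, all of H19. The exact 95% upper limits of an Igf2 share of 0 were 23.2%, 10.0% and 8.41%. Of these totals 3 UMIs, the floor used for a count of 0, would be 21.4%, 8.57% and 7.14%. Because of the overlap with Gm49394, these limits cover counting error only and do not bound the Igf2 share.

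The share differed more between groups of tumor-like cells than between tumors. Of the 5 tumor-like clusters, cluster 4 (24, 152 and 209 cells in tumors 1, 2 and 3, or 6.88%, 16.7% and 10.6% of tumor-like cells) had a Dlk1 share of 20.4%, 23.0% and 13.4%, while the other 4 clusters ranged from 33.6% in cluster 2 of tumor 3 to 73.9% in cluster 3 of tumor 1. The upper value came from only 69 UMIs of 32 cells, with a 95% interval of 61.94% to 83.75%. In tumors 2 and 3 these clusters reached at most 51.45%, in cluster 3 of tumor 3. Cluster 4 also had the deepest cells, with median depths of 3124, 2438 and 2128 UMIs. Its median share of mitochondrial UMIs was 3.29%, 8.40% and 7.70%. That share was 0.135% to 3.13% in clusters 0, 1 and 3, and 9.14%, 8.50% and 8.17% in cluster 2. The part of depth and of the mitochondrial share in the result was not tested. Cluster 4 held 28.0%, 28.1% and 15.2% of all tumor-like UMIs. Against that share, it held 85.1%, 70.1% and 60.3% of the Meg3 UMIs and 87.9%, 77.7% and 72.1% of the Kcnq1ot1 UMIs. The members had been left out of the clustering, so these shares were not built in by it, but the clusters were made from the same cells and no test is given.

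In cluster 4 the level of Meg3 was 4909, 4757 and 6399 CPM, against 202 to 379, 573 to 1083 and 592 to 1269 CPM in the other clusters of the 3 tumors. Kcnq1ot1 was at 993, 510 and 1026 CPM there. Its other clusters lay at 0 to 91.1 CPM except for cluster 2, which reached 378 CPM in the 50 doubtful cells of tumor 1 and 185 CPM in tumor 3. Dlk1 was also highest in cluster 4, at 1284, 1460 and 1022 CPM, but by less: its highest cluster was 5.39, 3.12 and 1.65 times its lowest. Peg10 in cluster 4 was at 1947, 853 and 1665 CPM, the second lowest of 5 clusters in tumor 1, the lowest in tumor 2 and the highest in tumor 3. Ndn ranged over the clusters by only 1.67, 1.74 and 1.06 times.

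**Figure D2:**
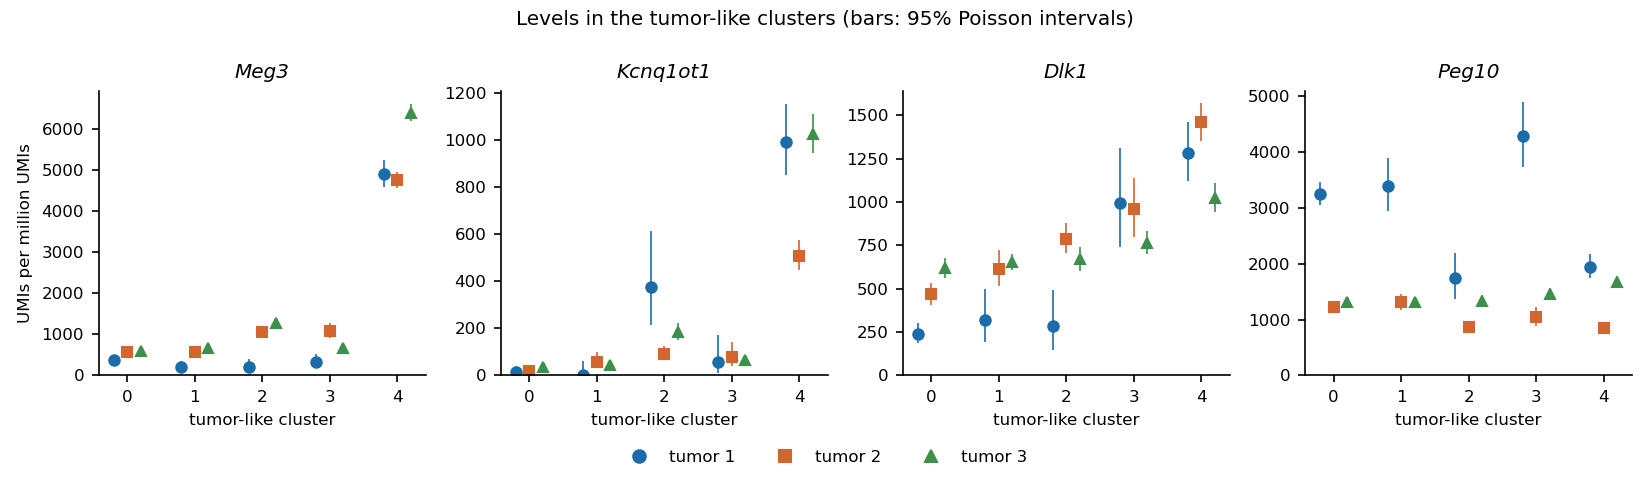
Levels of Meg3, Kcnq1ot1, Dlk1 and Peg10 in the 5 tumor-like clusters, in CPM, with 1 symbol per tumor and 95% Poisson intervals. Meg3 and Kcnq1ot1 stand out in cluster 4 in all 3 tumors, Dlk1 rises there to 1022 to 1460 CPM, and Peg10 has no common order, at 1947, 853 and 1665 CPM there.

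Cluster 4 was also rich in Malat1, an abundant noncoding RNA retained in the nucleus, at 15929 to 17253 CPM against 1924 to 3472 CPM in the others apart from the 50 doubtful cells of cluster 2 in tumor 1, at 28395 CPM. To ask which members went with Malat1, the tumor-like cells of each tumor were split at their median share of Malat1 into Malat1-rich cells (174, 456 and 982) and Malat1-poor cells (175, 456 and 982). Of 8 members tested, Kcnq1ot1, Meg3 and Mirg rose in the Malat1-rich cells and the other 5 did not pass the test. Across all 7628 genes tested, 1.3% were called higher and 0.0131% lower.

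Kcnq1ot1 was at 646, 317 and 386 CPM in the Malat1-rich cells and at 72.3, 47.5 and 38.1 CPM in the Malat1-poor cells. The fitted difference was 3.08 on the log2 scale (SE 0.147, adjusted p = 3.74e-07). Meg3 was at 3170, 3087 and 2585 CPM against 464, 689 and 593 CPM, a difference of 2.30 (SE 0.116, adjusted p = 4.77e-07). Mirg was at 48.8, 86.6 and 99.9 CPM against 27.8, 35.9 and 37.0 CPM, a difference of 1.28 (SE 0.178, adjusted p = 0.00473). Mirg did not pass the test without the replicate block, that is without tumor as a term (1.23, adjusted p = 0.222), or in DESeq2 (1.20, adjusted p = 0.138). All 3 were higher in the Malat1-rich cells of 3 of 3 tumors.

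Dlk1, the messenger RNA of the same locus, was at 669, 983 and 769 CPM in the Malat1-rich and 556, 780 and 681 CPM in the Malat1-poor cells. It was higher in 3 of 3 tumors, but the difference of 0.23 (SE 0.0858, adjusted p = 0.212) did not pass the test. Peg10 was at 2254, 952 and 1364 CPM against 3349, 1115 and 1441 CPM, lower in 3 of 3 tumors by 0.31 on the log2 scale (log2 difference -0.31, SE 0.0878, adjusted p = 0.119). Without tumor 1 both passed the threshold, Peg10 as lower (adjusted p = 0.00684) and Dlk1 as higher (adjusted p = 0.0285), and Peg10 was also called lower without the filter on low counts and in cells of 1000 to 4000 UMIs. Ndn (-0.11, SE 0.122), Nnat (0.19, SE 0.106) and H19 (0.43, SE 0.499) did not pass the test either.

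The Dlk1 share of the locus followed from these levels. It was 17.2%, 23.7% and 22.3% in the Malat1-rich cells, with 95% intervals between 15.0% and 25.1%. In the Malat1-poor cells it was 53.1%, 51.8% and 51.9%, with intervals between 47.9% and 58.2%. The shares of the 3 tumors thus did not overlap between the 2 states. Median depths of the Malat1-rich and Malat1-poor cells were 742 and 1266 UMIs in tumor 1 and differed little in tumors 2 (1536 and 1555) and 3 (1818 and 1790), and the median share of mitochondrial UMIs was higher in the Malat1-rich cells, at 0.442%, 3.11% and 2.45% against 0.238%, 2.22% and 1.88%; their part in the result was not tested. Within cells of 1000 to 4000 UMIs, Kcnq1ot1, Meg3 and Mirg were called higher as well. One of 32 other imprinted genes tested was called higher, Nespas, the antisense RNA of the Gnas locus (log2 2.24, SE 0.308, adjusted p = 0.0047). Nespas was at 22.5, 77.6 and 48.9 CPM against 8.34, 6.95 and 13.8 CPM, from only 6 UMIs in the Malat1-rich cells of tumor 1. Without the replicate block, and with the authors' corrected counts, 0 other imprinted genes were called. The median over the 32 genes was 0.18 beside -0.01 over all genes.

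**Figure D3:**
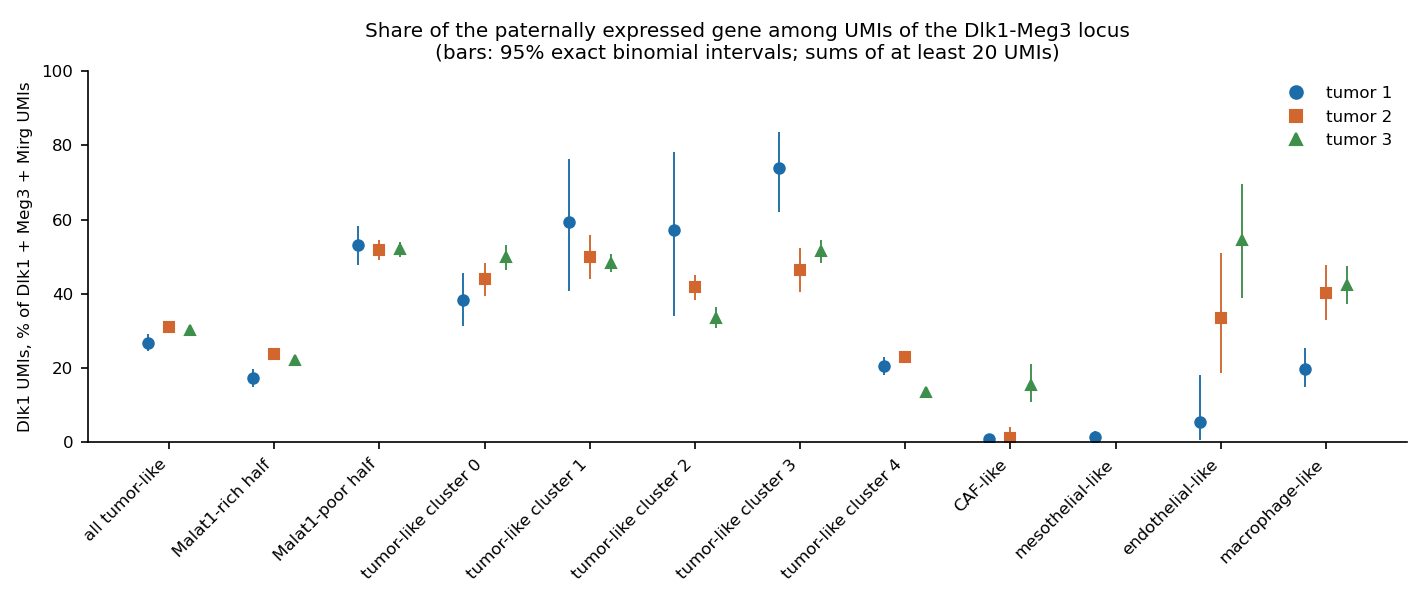
Dlk1 UMIs as a percentage of Dlk1, Meg3 and Mirg UMIs, with exact 95% binomial intervals and 1 symbol per tumor, for all tumor-like cells, their Malat1-rich and Malat1-poor cells, the 5 tumor-like clusters and 4 other classes. The share is 17.2% to 23.7% in Malat1-rich and 51.8% to 53.1% in Malat1-poor cells, lowest among tumor-like clusters in cluster 4, and 0.921% to 15.5% in the CAF-like cells.

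Cell cycle state was examined next. Tumor-like cells were thinned to 500 UMIs and called cycling with at least 2 UMIs from 18 cell cycle genes (141, 462 and 1060 cells) or noncycling with 0 (126, 185 and 335 cells); 82, 265 and 569 cells with 1 UMI were left out. Of 7 members tested, Meg3 and Kcnq1ot1 fell in cycling cells and the other 5 did not pass the test. Across all 5817 genes tested, 0.086% were called higher and 0.309% lower.

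Meg3 was at 1285, 1586 and 1507 CPM in cycling and at 2575, 2615 and 1770 CPM in noncycling cells. The log2 difference was -0.69 (SE 0.108, adjusted p = 7e-06), and the gap was widest in tumor 1 and narrowest in tumor 3, where the ratio was 0.851. Kcnq1ot1 was at 181, 134 and 191 CPM against 601, 259 and 228 CPM (log2 difference -0.91, SE 0.155, adjusted p = 4.89e-05). Both were lower in 3 of 3 tumors. Without tumor 1 the Kcnq1ot1 difference was -0.53 (adjusted p = 0.0411) and without tumor 3 it was -1.39. Malat1 was lower alongside them, at 4010, 4532 and 4531 CPM against 14060, 9387 and 4818 CPM (log2 difference -1.04, SE 0.133, adjusted p = 5.7e-08); its part in the result was not tested.

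Both calls were lost under several alternatives. In cells of 1000 to 4000 UMIs the differences shrank to -0.24 for Meg3 and -0.49 for Kcnq1ot1, with adjusted p of 1 and 0.615, and neither passed in DESeq2 (-0.70 and -0.9999) or without tumor as a replicate block (-0.72 and -1.14). With the authors' corrected counts the Meg3 difference was -0.35 (adjusted p = 0.471). Both passed without the 50 doubtful cells. Peg10 (0.05, SE 0.0999), Dlk1 (-0.11, SE 0.110), Ndn (-0.14, SE 0.118), Nnat (-0.26, SE 0.122) and Mirg (-0.36, SE 0.248) did not pass the test, and H19 and Igf2 were too low to be tested. None of 27 other imprinted genes was called by edgeR, with an unadjusted p under 0.05 for 1 of them, and DESeq2 called 0.

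**Figure D4:**
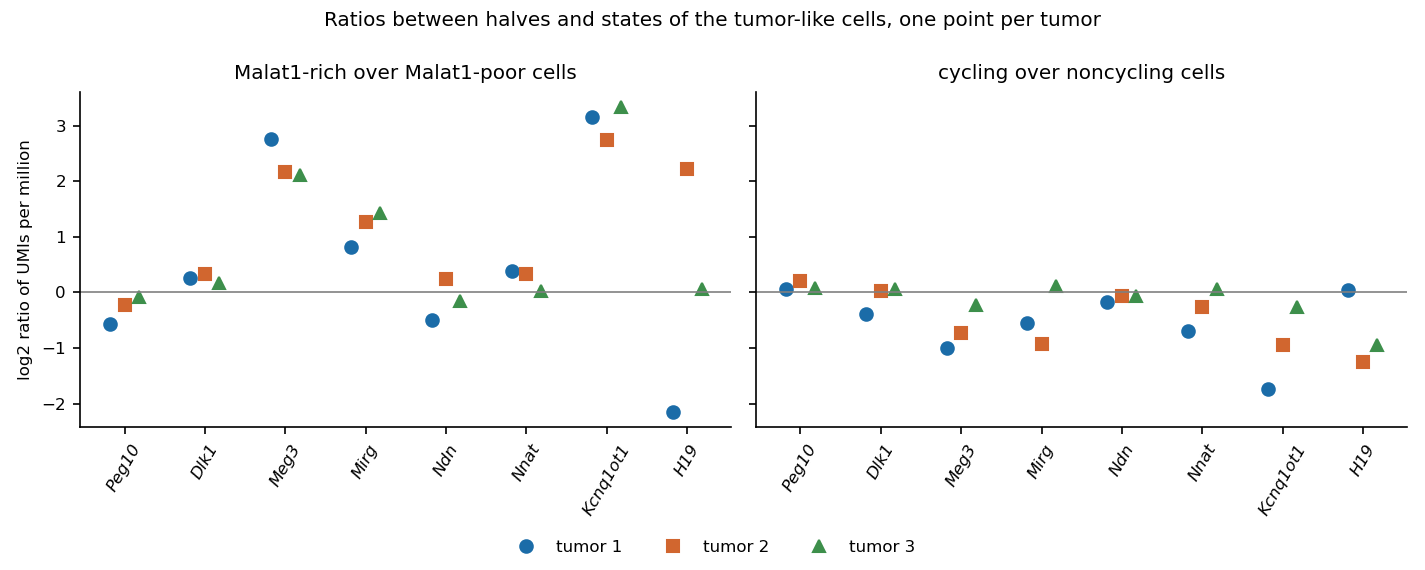
Log2 ratios of CPM between Malat1-rich and Malat1-poor (left) and between cycling and noncycling (right) tumor-like cells, for 8 members with 1 symbol per tumor; 0 marks no difference. Kcnq1ot1, Meg3 and Mirg lie above 0 in 3 of 3 tumors on the left, Meg3 and Kcnq1ot1 lie below 0 in 3 of 3 tumors on the right, and on the left Peg10 lies below 0 and Dlk1 above 0 in 3 of 3 tumors, by less.

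Cell by cell, Meg3 was more closely correlated with Kcnq1ot1 and Malat1 than with its neighbour Dlk1. After thinning to 1000 UMIs (159, 912 and 1964 cells), the Pearson correlation of log UMIs was 0.63, 0.45 and 0.52 between Meg3 and Kcnq1ot1, which lie on chromosomes 12 and 7, and 0.42, 0.54 and 0.52 between Meg3 and Malat1. Between the neighbours Dlk1 and Meg3 it was 0.29, 0.18 and 0.06. The values for Mirg were lower, at 0.18, 0.11 and 0.23 with Kcnq1ot1 and 0.10, 0.14 and 0.23 with Malat1. Only 1.89%, 5.15% and 6.26% of the thinned cells held a Mirg UMI, and 6.29%, 9.65% and 10.7% a Kcnq1ot1 UMI. The correlations of these 2 genes thus rest on few cells, and those of Mirg cannot be ranked against those of Meg3. Peg10 was close to 0 with Dlk1 (-0.000443, -0.09 and 0.01). The points are cells of 1 library each, share its depth, and are not replicates, so these values are descriptions.

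The other imprinted genes placed the members in a wider setting. Of the 58 found, 29 passed the filter on low counts when tumor-like cells were compared with the average of 11 other classes. By edgeR 22 of them were called higher and 0 lower. Across all 8985 genes tested, 32.6% were called higher and 1.77% lower. A gene could pass this filter through its tumor-like sums alone, and the list was chosen with earlier results of these data known. The calls are therefore a description and not evidence of a wider rise of imprinted genes. The median log2 difference of the 29 was 2.20 beside 0.66 for all genes. Without tumor 1 the median over 18 was 0.80 beside 0.36. The counts of lower calls carry little weight here, because a gene with 0 UMIs in some other class has no lower bound on its average over classes and could not be called lower: of 5263 such genes 0 were, and all 159 lower calls fell among the other 3722. Of the other imprinted genes, 20 had a class at 0. Of the remaining 9, which could have been called in either direction, 8 were called higher, with a median of 1.19. Beside them, 1585 of all 3722 genes without a class at 0 were called higher, with a median of 0.66. This contrast also depends on scaling. With RLE size factors the median was 1.57 beside -0.08 for all genes, and 10 of 29 were called higher beside 527 of all 8985. With DESeq2 the median was 0.55 beside -0.40, with 9 higher and 2 lower. All 8985 genes then gave 689 higher and 2260 lower calls. Without tumor 1, 8 of 18 were called higher beside 851 of all 4678 genes. Calls over all genes were 94.9% higher with TMM, 57.8% with RLE factors and 23.4% in DESeq2.

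The largest rises among well-expressed genes were in Kcnk9, a maternally expressed potassium channel (47.9, 61.6 and 71.9 CPM in tumor-like cells, 0 to 1.08, 0 to 30.0 and 0 to 55.7 CPM in other classes; log2 4.99, SE 0.796, adjusted p = 2.51e-05), and Ddc, the decarboxylase of catecholamine synthesis (238, 179 and 178 CPM; log2 3.83, SE 0.485, adjusted p = 1.42e-06). Ddc was higher in 1 other class of tumor 2, at 359.5 CPM. Nap1l5 (35.1, 57.6 and 50.1 CPM; log2 3.36), the splicing-protein gene Snrpn (137, 127 and 173 CPM; log2 3.31), Zdbf2 (171, 158 and 134 CPM; log2 3.29) and the receptor adaptor Grb10 (142, 215 and 154 CPM; log2 3.24) followed. Nap1l5, Snrpn and Grb10 were also exceeded in at least 1 other class of a tumor. These 6 genes were picked for the size of their called difference in this same contrast. Their adjusted p and calls are therefore descriptions and not evidence of a rise. Apart from Zdbf2, these genes had 0 UMIs in at least 1 other class, Kcnk9 in 4, so their fitted differences depend on the prior count of the fit and are neither exact sizes nor bounds. All 6 stayed past the threshold under each of the 11 to 13 alternatives in which they were tested, but without tumor 1 the differences fell to 1.23 for Ddc, 0.96 for Snrpn, 1.15 for Grb10 and 1.71 for Zdbf2, and Kcnk9 and Nap1l5 were not tested.

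Over the 28 sums of class and tumor, the genes whose log2 CPM resembled Peg10 most were Nefl (Pearson r 0.97), Mycn (0.97) and Uchl1 (0.96), and those resembling Dlk1 were Uchl1 (0.97), Mycn (0.96) and Bex1 (0.96). Meg3 had looser matches in Tceal9 (0.89), Serf1 (0.89) and Tln2 (0.86), and H19 in Aebp1 (0.85), Kank1 (0.85) and Ctdspl (0.84). Igf2 did not pass the filter. Sums of 1 tumor share a library, so no test is attached to these values.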

How the data were processed

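Fresh tumors of 3 TH-MYCN mice were profiled by droplet 3′ sequencing with 10x Genomics chemistry. The submitters' processing notes name Cell Ranger 3.1.0, Seurat 3.1.5 and 3, and the mm10 build. The deposited raw tables hold UMI counts per gene symbol and barcode (3257, 4327 and 6038 barcodes; 17319241, 21829496 and 20041044 UMIs in tumors 1, 2 and 3). The deposited normalized tables hold natural log values of 1 plus a corrected count, for the barcodes the authors kept after removing ambient RNA, doublets and barcodes outside their limits; 100% of values returned to whole numbers within 1e-06. How the corrected counts were made is not stated. In each tumor their totals per kept cell spanned a narrower range than the raw totals. No further doublet caller was run.

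The raw counts of the 5650 kept barcodes were clustered in Seurat 5.3.0 (2000 variable genes, 30 dimensions, 20 neighbors, resolution 1) after holding out 67 genes, among them the imprinted genes. A cluster was named from at least 3 markers with a fold of 2 in 10% of its cells, checked in each tumor; names were rebuilt here, since the study's own are not used. This left 155 cells unnamed. One marker used in the naming is not reported here. CAF stands for cancer-associated fibroblast. Counts were summed per tumor and class (28 sums of at least 10 cells) or state and tested in edgeR 4.0.16 (quasi-likelihood, TMM, tumor as a block, Benjamini-Hochberg over all genes, threshold 0.05). The block comes from the shared animal, and deviations of same-tumor sums correlated at 0.388 to 0.499. Classes were averaged on the log scale, and genes with a class at 0 UMIs were counted apart, which was decided after seeing the data. Genes that define a split were left out of its counts of calls. The scripts were tested on simulated data. The members and the gene lists were chosen with earlier results of these data known. Named genes were all members, up to 6 other imprinted genes per direction with the largest called difference and at least 50 CPM, and 3 genes most like each of 5 members; Nespas was named after its value was seen. Alternatives were DESeq2 1.42.0, RLE factors, no filter on low counts, no block, each tumor left out, the authors' corrected counts, other resolutions, depths and splits. Promoter and microRNA sequences are RefSeq's (GRCm38.p6).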

Additional observations from a re-analysis of the deposited data

Results flagged for a closer look

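The barcodes that the authors did not keep lie outside every comparison and in tumors 2 and 3 carried more of 6 and 4 members than the kept tumor-like cells of the same tumor, while in tumor 1 they carried more of 0. They number 1343, 3106 and 3523 in tumors 1, 2 and 3, with a median of 27.9%, 35.0% and 37.7% mitochondrial UMIs. In tumor 2 they held 3871 CPM of Meg3, 1584 CPM of Dlk1, 93.4 CPM of Mirg, 542 CPM of Ndn, 641 CPM of Nnat and 537 CPM of Kcnq1ot1. In tumor 3 they held 4627 CPM of Meg3, 830 CPM of Dlk1, 150.0 CPM of Mirg and 768 CPM of Kcnq1ot1. Of all Meg3 UMIs in the raw tables, 54.7%, 95.1% and 90.9% lay in these barcodes. Their Dlk1 share of the locus was 11.5%, 28.6% and 14.8%. Peg10 was lower than in the kept tumor-like cells of each tumor, at 163, 607 and 898 CPM against 2883, 1032 and 1402 CPM, and so was H19. Ndn and Nnat were lower in tumor 3, at 359 and 322 CPM against 535 and 521 CPM. In tumor 1 Meg3 was at 799 CPM, Dlk1 at 106 CPM and Kcnq1ot1 at 193 CPM, against 1615, 604 and 316 CPM. Cell classes were not assigned to these barcodes, so a difference in the mix of cells and a difference within tumor cells cannot be told apart.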

How the results depend on the processing

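Of the counts of calls, levels and shares recomputed under alternatives, 114 stayed within 1.5 times (counts) or within 1 SD between tumors (levels and shares) and 22 did not. No gene named with a call changed direction, whereas the calls over all genes in the tumor-like contrast went from 94.9% higher to 23.4% higher in DESeq2. Over all 8985 genes tested in that contrast 2932 were called higher, 527 with RLE factors and 689 in DESeq2. With the authors' corrected counts 1378 of 5865 were, and 1395 of 9094 when class names were not checked per tumor. Without tumor 1, 851 of 4678 were. Other imprinted genes called higher in tumor-like cells numbered 22, and 10 with RLE factors, 9 in DESeq2 (with 2 lower), 10 with the authors' corrected counts, 14 when class names were not checked per tumor (an alternative chosen after seeing the data) and 8 to 24 with 1 tumor left out, the lowest without tumor 1; genes with a class at 0 UMIs could not be called lower in edgeR. Between cycling and noncycling cells 23 genes were called; without the replicate block 0 were (73 at an unadjusted p under 0.05), in DESeq2 1, with a cut at 3 UMIs 14, in cells of 1000 to 4000 UMIs 1, without the 50 doubtful cells of tumor 1 (also chosen after seeing the data) 10, and 7 to 34 with 1 tumor left out, the lowest without tumor 1. Between Malat1-rich and Malat1-poor cells 100 were called; without the block 6 were, in DESeq2 30, without the filter 354, with the corrected counts 27, in cells of 1000 to 4000 UMIs 247, between the cells of highest and lowest Malat1 share 184, and 90 to 636 with 1 tumor left out (636 without tumor 1, 219 without tumor 3). Meg3 in cycling cells lost its call in 4 of 11 alternatives and Kcnq1ot1 in 3. With the corrected counts Ndn in tumor-like cells had a mean of 527.5 CPM in place of 425 CPM and the Dlk1 share 33.4% in place of 29.3%. The cause of these changes was not tested. With 3 tumors of 1 group, shallow tumor-like cells in tumor 1 (median 934 UMIs) and Mirg and H19 at 14 to 257 UMIs in tumor-like cells, small differences were not detectable.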

Other observations

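The 155 cells left unnamed, 25 of tumor 2 and 130 of tumor 3, held tumor genes at levels near those of the tumor-like class. Peg10 was at 623 and 1265 CPM, Dlk1 at 1018 and 762 CPM, Nnat at 665 and 552 CPM and Stmn2 at 810 and 810 CPM, while Meg3 was at 478 and 673 CPM and Kcnq1ot1 at 62.3 and 52.4 CPM, from 3 and 13 UMIs. These cells entered no comparison.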
